A study of Rattus norvegicus with 6 samples.

Results

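The 8 genes listed here stand at the head of the Ras and Raf signalling route and were followed in rat islets at 3 and 12 months of age, namely *Hras*, *Nras*, *Rras*, *Rras2*, *Braf*, *Araf*, *Rasa1* and *Crkl*. They were chosen by name, and each gene's probe was found through the RefSeq transcript accession printed beside it in the scanner output. Of the 8 genes, 7 had a matched probe, out of 13903 genes with a matched probe on the array, and *Braf*, which had none, was not analysed here. The 7 genes were represented by 9 probes, since *Hras* and *Araf* had 2 each, and the brighter probe of a gene gave its value. All 9 probes were well above background on all 6 arrays, so all 7 genes passed the filter on dim probes.

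Islets, which hold the hormone-secreting cells of the pancreas, were taken from male Wistar rats by collagenase digestion. The 12-month group and the 3-month group each consisted of 3 one-colour arrays, with no treatment named for either. The design text counts 3 rats of each age, but no label ties an array to a rat, so the p-values measure the spread between arrays. The comparison asks which transcripts differ in islets of older rats.

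Ras proteins are small GTPases that switch between a GDP-bound resting form and a GTP-bound active form. Growth factor receptors, through adaptors such as CRKL and GRB2 and exchange factors such as SOS1, load them with GTP, and GTPase-activating proteins such as RASA1 return them to the resting form. Active Ras binds the Raf kinases, which phosphorylate the MEK kinases, and these in turn phosphorylate ERK. In beta cells this route is known for its part in proliferation, survival and insulin gene transcription.

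Each age was scanned separately, so that age cannot be told apart from scan in the values below. Between 59.5% and 64.2% of probes were well above background on the 12-month arrays, against 73.1% to 77.5% on the 3-month arrays, while negative control spots had a median of 89.5 to 91 against 29.5 to 31 scanner units. Before normalisation, the 75th percentile of log2 signal was 8.46 on 3-month replicate 1 and between 10.21 and 11.35 on the other 5 arrays. After quantile normalisation the median difference over the 17941 tested probes, 12-month minus 3-month, was -0.17 on the log2 scale, and 42.0% of them were above 0.

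Cell type markers were read beside the genes. The hormone genes *Ins1*, *Ins2*, *Gcg*, *Sst* and *Ppy* were well above background on all arrays at both ages. All 7 acinar markers with a probe, such as *Cpa1*, *Cpb1* and *Cel*, were also well above background on every array, and their summed level was 20.33 to 21.03 log2 units at 12 months and 20.28 to 20.84 at 3 months. The summed levels of 5 of the 9 marker lists did not overlap between the ages. They were higher at 12 months for beta cells (19.93 to 20.14 against 19.66 to 19.88), other endocrine cells (19.78 to 19.94 against 19.45 to 19.59) and stellate and mesenchymal cells (14.54 to 15.93 against 13.21 to 13.98), and lower for endothelial cells (10.88 to 11.63 against 11.90 to 12.45) and nerve and Schwann cells (11.69 to 12.13 against 12.18 to 13.01). All 4 stellate and mesenchymal markers with a probe had a difference above 0, with a median of 1.54. The 3 endothelial markers with a probe had a median difference of -1.14 but went both ways. *Tek* (-1.14) and *Cdh5* (-2.11) were lower at 12 months without overlap, whereas *Pecam1* (1.23) was higher without overlap. *Cdh5* was well above background on no 12-month array. The 6 tested nerve and Schwann markers had a median difference of -0.97, with 5 below 0 and *Ncam1* (0.80) above 0. A further nerve marker was well above background on no array. For *Sox10*, a nerve marker, 1 of the 3-month arrays had no value and was left out of its fit. The median differences of the beta cell, other endocrine, duct, immune and red blood cell markers were 0.10, 0.32, 0.05, -0.03 and -1.06. Of the 5 beta cell markers with a probe, *Iapp* (0.95) and *Slc30a8* (3.71) were higher at 12 months without overlap. The ages overlapped for *Ins1* (0.10), *Ins2* (-0.12) and *Nkx6-1* (-0.22). A summed level follows the brightest markers of its list most. Quantile normalisation sets the level of such a marker by its rank on the array. *Ins1*, for example, had the same level, 18.72, on 12-month replicates 1 and 2 and on 3-month replicate 3. Of all single probes, 16.5% were higher and 22.7% lower at 12 months without overlap. The part of these markers in the results below was not tested. In whole islets, fewer cells of a type and less RNA per cell cannot be told apart.

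The promoters of 3 genes are shown first, for the gene with the largest difference (*Rasa1*), the Raf kinase followed here (*Araf*) and a classical Ras gene whose values lay in the opposite direction (*Nras*). Each sequence runs 5′ to 3′ on the gene's strand, from 250 bases before to 50 bases after the gene's start, and comes from RefSeq on build GRCr8. *Rasa1* lies at chr2:17676112-17676411 on the minus strand, *Araf* at chrX:3792562-3792861 on the minus strand and *Nras* at chr2:193271220-193271519 on the plus strand. Capitals mark matches, on either strand, to the GC box (GGGCGG), to the CCAAT box, to the TATA box (TATAAA), to an ETS motif (CCGGAA) and to the core of the cAMP response element (TGACG).

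Rasa1: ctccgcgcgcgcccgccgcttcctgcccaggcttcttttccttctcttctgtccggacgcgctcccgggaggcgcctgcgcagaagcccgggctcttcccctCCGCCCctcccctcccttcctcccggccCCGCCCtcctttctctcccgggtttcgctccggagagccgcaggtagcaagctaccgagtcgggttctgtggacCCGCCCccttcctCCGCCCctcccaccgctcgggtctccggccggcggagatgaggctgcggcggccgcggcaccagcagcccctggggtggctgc
Araf: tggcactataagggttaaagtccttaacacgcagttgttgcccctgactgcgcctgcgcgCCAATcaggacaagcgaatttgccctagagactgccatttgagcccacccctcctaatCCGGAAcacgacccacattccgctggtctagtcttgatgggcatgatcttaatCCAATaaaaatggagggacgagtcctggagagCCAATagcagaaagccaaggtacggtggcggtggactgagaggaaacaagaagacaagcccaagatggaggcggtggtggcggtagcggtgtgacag
Nras: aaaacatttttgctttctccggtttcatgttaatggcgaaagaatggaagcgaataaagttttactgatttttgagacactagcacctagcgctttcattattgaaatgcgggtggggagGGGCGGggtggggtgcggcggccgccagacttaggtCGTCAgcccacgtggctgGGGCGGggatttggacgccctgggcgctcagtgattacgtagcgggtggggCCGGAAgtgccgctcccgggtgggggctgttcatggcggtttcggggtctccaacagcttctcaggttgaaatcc

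The *Rasa1* window held 4 GC boxes and no match to the other motifs, and 73.7% of its bases were G or C, against a median of 51.7% over 33469 promoters of the same length. The *Araf* window held 3 CCAAT boxes and 1 ETS motif at 54% G or C. The *Nras* window held 2 GC boxes, 1 ETS motif and 1 cAMP core at 56.7% G or C. No matches of different motifs overlapped in these 3 windows. Of all promoters, 33.1% held a GC box, 37.5% a CCAAT box, 14.2% a TATA box, 15% the ETS motif and 21.2% the cAMP core. A match describes letters in the window only.

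By the brighter probe of each gene, *Rasa1* alone was higher at 12 months at an adjusted p under 0.05 in limma. *Rasa1* codes for the p120 GTPase-activating protein that switches Ras off. Of the 7 genes, 1 was higher and 0 were lower at 12 months in limma at an adjusted p under 0.05 (adjusted over all tested probes by Benjamini and Hochberg). Over all tested probes 5.32% were called higher and 3.05% lower by this rule. By the study's own threshold, which asks for more than a 2-fold difference and p under 0.05 before adjustment, again 1 was higher and 0 were lower, where 10.1% of all tested probes were higher and 11.9% lower. These counts took the limma p and the brighter probe of a gene. The dimmer *Araf* probe also met this threshold (2.12-fold higher, limma p 0.00265 before adjustment). The 3 arrays of each age did not overlap for 6 of the 7 genes, 2 higher and 4 lower at 12 months. The same held for 16.5% of all probes in the higher and 22.7% in the lower direction. The median difference of the 7 genes was -0.55 on the log2 scale.

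**Figure D1:**
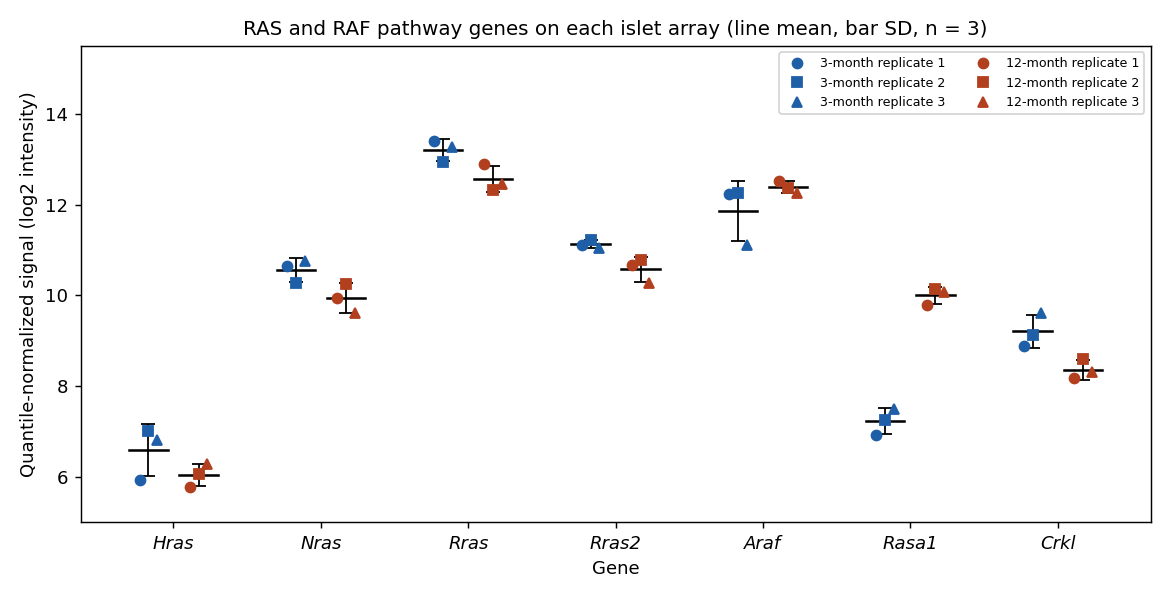
Quantile-normalised signal (log2 intensity, vertical axis) of the 7 genes with a probe on each of 3 arrays of 3-month islets (blue) and 3 arrays of 12-month islets (red). Each point is an array, lines are means and bars are SD. *Rasa1* lies between 6.93 and 7.50 at 3 months and between 9.80 and 10.14 at 12 months, whereas *Hras* overlaps between the ages.

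The Ras GTPases came first in the route. *Hras*, one of the classical Ras genes, had normalised log2 levels of 5.78, 6.06 and 6.28 on the 12-month arrays 1 to 3 and of 5.94, 7.01 and 6.81 on the 3-month arrays 1 to 3. The lowest 3-month array, replicate 1, lay within the 12-month range, and the ages overlapped. The difference was -0.55 (limma SE 0.35, adjusted p 0.303), and the 95% interval ran from -1.37 to 0.28.

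The dimmer *Hras* probe had levels of 5.98, 6.04 and 6.53 at 12 months and of 5.44, 6.58 and 6.65 at 3 months. It differed by -0.04 (limma SE 0.39, adjusted p 0.949), and its 3-month replicate 1 was the lowest array of all. Within an array, the brighter probe minus the dimmer one was between -0.25 and 0.03 at 12 months and between 0.16 and 0.49 at 3 months. The probes of *Hras* thus differed in their change by -0.50, without overlap between the ages, at an exact permutation p of 0.1 (two-sided), the smallest that 20 arrangements allow.

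*Nras*, a second classical Ras gene, had levels of 9.95, 10.26 and 9.62 at 12 months and of 10.65, 10.27 and 10.76 at 3 months. The highest 12-month array and the lowest 3-month array, both numbered 2, lay next to each other, with no overlap. The difference was -0.62 (limma SE 0.27, adjusted p 0.172; 95% interval -1.27 to 0.04).

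*Rras* and *Rras2* code for R-Ras, known for its part in integrin-dependent adhesion, and for its relative TC21. *Rras* had levels of 12.90, 12.33 and 12.46 at 12 months and of 13.41, 12.94 and 13.27 at 3 months. *Rras2* had levels of 10.68, 10.79 and 10.27 at 12 months and of 11.12, 11.22 and 11.04 at 3 months. Both were lower on every 12-month array than on any 3-month array. For *Rras* the gap was smaller than the spread within either age, and for *Rras2* it was smaller than the spread at 12 months. The difference was -0.64 for *Rras* (limma SE 0.27, adjusted p 0.151; 95% interval -1.28 to -0.01) and -0.55 for *Rras2* (limma SE 0.24, adjusted p 0.172; 95% interval -1.13 to 0.03).

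None of the 4 Ras genes passed the adjusted threshold in limma, and *Rras* alone passed an unadjusted p of 0.05, with limma p 0.0483 before adjustment. Each kept its sign under every alternative run, 17 for *Hras* and 16 for each of the others, with values from -0.99 to -0.29 for *Hras*, from -0.78 to -0.36 for *Nras*, from -0.92 to -0.49 for *Rras* and from -0.65 to -0.39 for *Rras2*. The *Hras* values are those of the brighter probe or of the mean of both probes. The dimmer *Hras* probe kept its sign under only 12 of 16 alternatives. Set against the median of all probes, *Hras*, *Nras*, *Rras* and *Rras2* were at -0.37, -0.45, -0.47 and -0.37, and with each array shifted to a common 75th percentile, where that median was -0.40, they were at -0.52, -0.21, -0.52 and -0.18. Pairs of related genes were compared within arrays. *Hras* minus *Nras* changed by 0.07 between the ages (exact permutation p 1, two-sided), and *Rras* minus *Rras2* by -0.10 (exact permutation p 0.5). After adjustment over these 2 pairs both exact p-values were 1. The change was not larger than the spread between arrays in either pair, and its sign depended on single arrays.

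**Figure D2:**
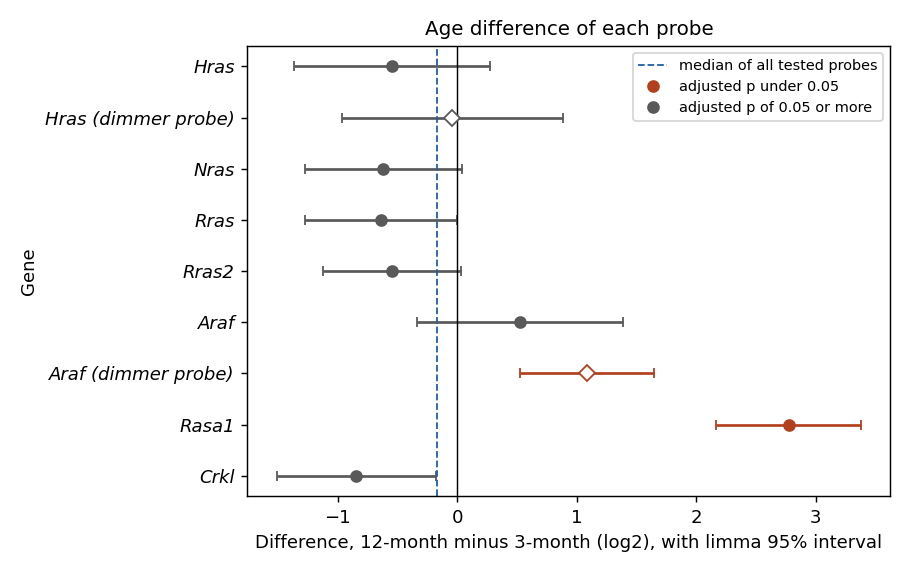
Difference between 12-month and 3-month islets (log2, horizontal axis) for each of the 9 probes, with the limma 95% interval from 3 arrays of each age. Filled circles are the probe used for a gene and open diamonds the dimmer probe of *Hras* and *Araf*. *Rasa1* at 2.77 and the dimmer *Araf* probe at 1.08 are in red, and the dashed line is the median of all tested probes, -0.17.

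*Araf* codes for one of the Raf kinases, which carry the signal from Ras to MEK. Its brighter probe had levels of 12.53, 12.38 and 12.26 on the 12-month arrays and of 12.24, 12.25 and 11.11 on the 3-month arrays. The ages did not overlap, but 5 arrays lay between 12.24 and 12.53 and 3-month replicate 3 lay well below them. The difference was 0.52 (limma SE 0.36, adjusted p 0.340; 95% interval -0.33 to 1.38), with 0.34 under the 75th percentile shift, and without 3-month replicate 3 it was 0.15.

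The dimmer *Araf* probe had levels of 11.65, 11.83 and 12.03 at 12 months and of 10.67, 10.64 and 10.95 at 3 months. It was higher on every 12-month array, and 3-month replicate 3 did not stand apart on it. It rose by 1.08 (limma SE 0.24, adjusted p 0.0408), 2.12-fold, and passed the adjusted threshold under 5 of 16 alternatives, with adjusted p-values from 0.0186 to 0.306 in limma or the methods' t-test. It did not pass when any 1 of the 6 arrays was left out, with values then from 0.99 to 1.18. The probes' own difference in change was -0.56 with overlapping ages (exact permutation p 0.4). With the mean of both probes in place of the brighter one, *Araf* differed by 0.80 at an adjusted p of 0.0748 in limma.

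**Figure D3:**
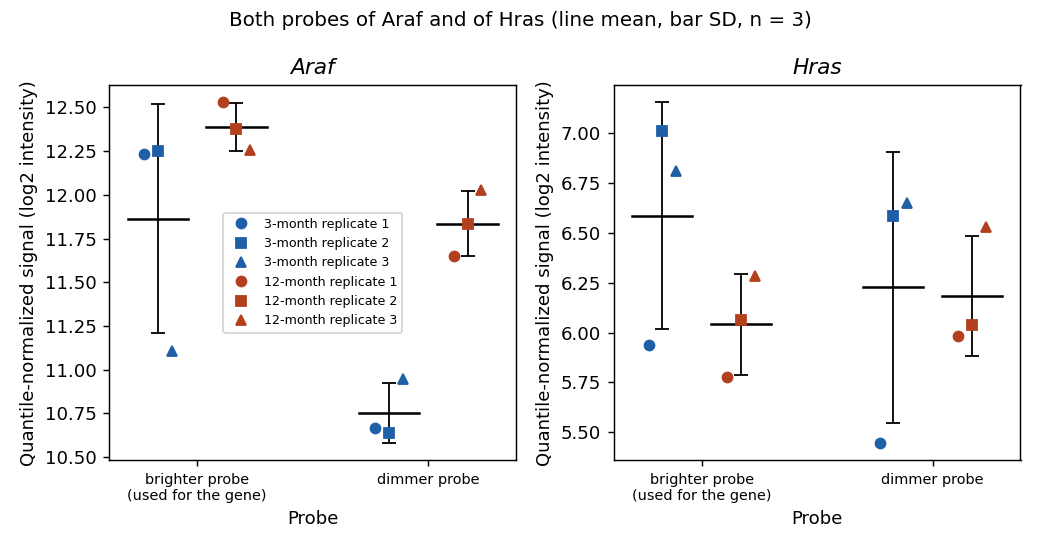
Quantile-normalised signal (log2 intensity) of both probes of *Araf* (left) and *Hras* (right) on each array, with lines for the mean and bars for the SD of 3 arrays. On the brighter *Araf* probe 3-month replicate 3 lies at 11.11, below the other arrays, and on the dimmer probe all 3-month arrays lie between 10.64 and 10.95. The vertical axes do not start at 0 and differ between the panels.

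*Rasa1* had levels of 9.80, 10.14 and 10.08 on the 12-month arrays and of 6.93, 7.25 and 7.50 on the 3-month arrays. The scanner signals before normalisation were 1832, 1934 and 1019 units at 12 months and 48.3, 133 and 196 at 3 months. The ages were far apart on every array, in the scanner signal as well as after normalisation. The means were 10.00 ± 0.18 and 7.23 ± 0.29 (SD, n = 3), and the difference was 2.77, a 6.84-fold rise (limma SE 0.26, adjusted p 0.0043; 95% interval 2.17 to 3.38). An exact permutation test gave p 0.1, the smallest it allows.

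The rise of *Rasa1* was 2.68 with the 75th percentile shift, 2.23 with normexp background correction and 2.78 in the authors' own table of values. It passed the adjusted threshold under 13 of 16 alternatives, which included leaving out each of the 6 arrays in turn. It did not pass in the 3 fits of only 4 arrays. On the arrays numbered 1 and 2 it was 2.87, with limma adjusted p 0.198 with the number as a block and 0.0656 without the block, and on the arrays whose names share an ending it was 2.59 (limma adjusted p 0.105). Of all tested probes 0, 55 and 0 passed in these 3 fits. Relative to the median of all probes it was 2.94 under the main settings and 3.08 with the 75th percentile shift. *Rasa1* stands in a list of MAPK and Ras pathway genes that the study drew from these same arrays, and *Araf* in a list of ErbB pathway genes, so their direction is not independent of that choice.

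*Crkl* codes for an adaptor of SH2 and SH3 domains that couples receptors to the Rap1 exchange factor RAPGEF1. It had levels of 8.18, 8.61 and 8.31 at 12 months and of 8.89, 9.13 and 9.61 at 3 months. All 12-month arrays were lower than all 3-month arrays. The difference was -0.85 (limma SE 0.28, unadjusted p 0.0198, adjusted p 0.0964; 95% interval -1.51 to -0.18), which is past an adjusted p of 0.1 and not past 0.05. It kept its sign under all 16 alternatives, between -1.01 and -0.62, and passed 0.05 under none of them, with the lowest adjusted p at 0.0605 in limma.

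**Figure D4:**
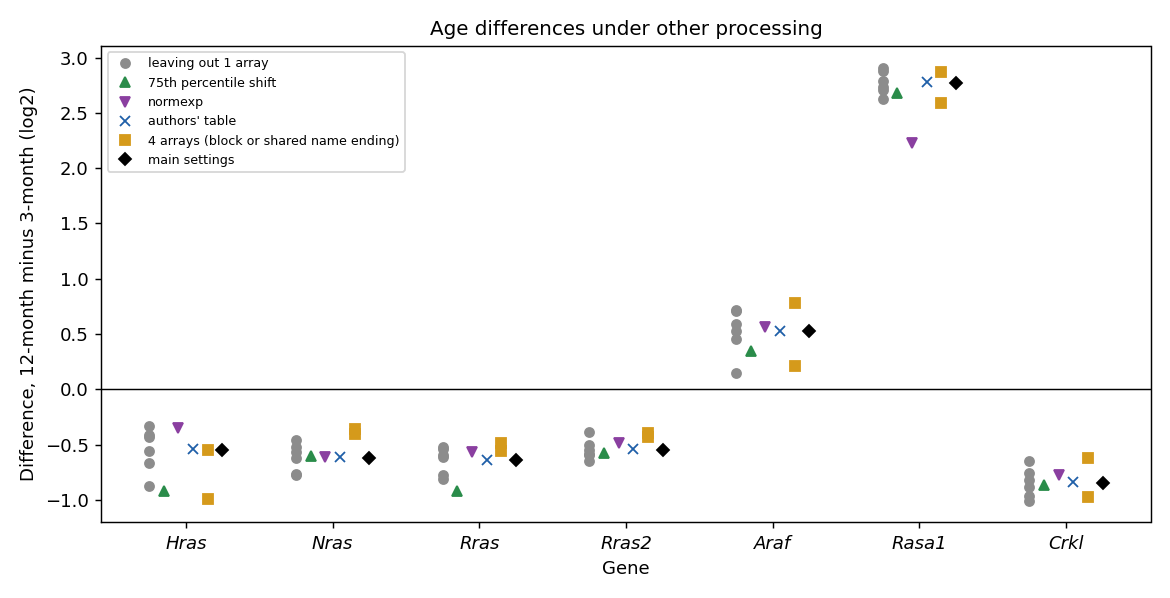
Difference between 12-month and 3-month islets (log2, vertical axis) of the 7 genes under the main settings (black diamonds) and under alternatives that change the value: leaving out 1 of the 6 arrays, a 75th percentile shift, normexp, the authors' table, and the fits of 4 arrays. *Rasa1* stays between 2.23 and 2.91 and *Crkl* between -1.01 and -0.62, and *Araf* falls to 0.15 when 3-month replicate 3 is left out.

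The neighbours of these genes in the route were read from 10 lists of 105 genes in all, of which 81 had a probe and 66 were tested. Of the 66, 8 were higher and 1 was lower at 12 months at an adjusted p under 0.05 in limma, beside 5.32% and 3.05% of all probes. By the study's threshold 12 were higher and 3 lower, beside 10.1% and 11.9% of all probes. Without overlap 18 were higher and 9 lower, beside 16.5% and 22.7%. The median difference of the 66 was 0.09. The lists hold genes of the study's own pathway tables, among them *Rasa2*, *Gab1*, *Rap1b*, *Rassf5*, *Dusp6* and *Ywhaz*, so their direction is not independent of that choice. The count of 9 was 1 without 12-month replicate 1, 2 without 12-month replicate 3, 4 without 3-month replicate 1 and 3 without 3-month replicate 3. It stayed at 9 without 12-month replicate 2. The calls over all tested probes moved too, to 208 without 12-month replicate 1 and 2167 without 12-month replicate 2. In the main settings they were 955 higher and 547 lower.

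Of 8 other Ras and Rap GTPases tested, 2 rose and 1 fell, with a median difference of -0.39. *Rap1b*, a GTPase of the Rap branch, rose by 1.95 (limma adjusted p 0.0379), and *Rap2a* fell by 1.90 (limma adjusted p 0.0244). Both *Rap1b* and *Rap2a* were above background on all arrays, and they passed the threshold under 7 and 8 of 16 alternatives. Neither passed in limma without 12-month replicate 1 or without 12-month replicate 3.

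Of 5 other GTPase-activating proteins tested, 1 rose. This was *Rasa2*, a relative of *Rasa1*, with levels of 6.63, 5.96 and 6.82 at 12 months and of 2.70, 4.17 and 4.14 at 3 months. Its 3-month signal was above background on 2 arrays of 3, and it rose by 2.80 (limma adjusted p 0.0218), or by 0.99 with normexp, whose offset compresses dim differences (limma adjusted p 0.0291). *Rasa2* passed the threshold under 8 of 15 alternatives. It did not pass in limma without 12-month replicate 1 or without 12-month replicate 3, nor in the methods' t-test. *Nf1*, the gene for neurofibromin, was well above background on no array and was not tested.

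Of 8 genes for Raf kinases and scaffolds, 1 rose and 5 had a difference below 0. *Ywhaz*, which codes for the 14-3-3 zeta protein that binds phosphorylated Raf, had levels of 13.54, 13.18 and 12.98 at 12 months and of 10.74, 10.11 and 9.20 at 3 months, a rise of 3.22 (limma adjusted p 0.0113). *Ywhaz* passed the threshold under 11 of 16 alternatives, and not in the methods' t-test (adjusted p 0.0620). *Shoc2*, a scaffold of the Ras and Raf complex, differed by 1.71 (limma adjusted p 0.0759), or by 0.89 with normexp (limma adjusted p 0.0614).

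Of 8 other adaptors, 1 rose. *Gab1*, a docking protein of receptor tyrosine kinases, had levels of 10.63, 10.93 and 10.65 at 12 months and of 8.12, 8.63 and 7.996 at 3 months. It rose by 2.49 (limma adjusted p 0.00648) and passed under 13 of 16 alternatives. *Grb2*, which brings SOS1 to receptors, differed by 0.01 (limma adjusted p 0.970), with a sign that turned in 5 of 16 alternatives. *Shc3* differed by -0.94 with overlapping ages (limma adjusted p 0.143).

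Of 7 exchange factors tested, none passed the adjusted threshold in limma, and 6 had a difference below 0, with a median of -0.83. *Rasgrf1*, a calcium-responsive exchange factor, was well above background on all 3-month arrays and on no 12-month array, with signals too near the background for a bound on the fold. *Rasgrp4* was well above background on all 3-month arrays and on 1 of the 12-month arrays, and its difference, -1.33 (limma adjusted p 0.0720), was -0.45 with normexp (limma adjusted p 0.151). *Sos1*, above background on 1 of the 12-month and 2 of the 3-month arrays, differed by -0.15 (limma adjusted p 0.914), with a sign that turned in 7 of 15 alternatives.

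Downstream, the 3 tested MEK and ERK kinases had differences above 0 and did not pass the threshold in limma. They were 0.53 for *Map2k1* (adjusted p 0.152), 0.75 for *Map2k2* (adjusted p 0.428) and 0.16 for *Mapk3* (adjusted p 0.693), and *Mapk3* turned to -0.25 with the 75th percentile shift. Of 9 genes known to respond to ERK, 2 rose and 7 had a difference above 0, with a median of 0.80. The other 2 were below 0. Of these, *Etv5* was lower at 12 months without overlap, by -0.87 (limma adjusted p 0.111), and *Dusp5* differed by -0.46 with overlapping ages (limma adjusted p 0.422). *Dusp6*, a phosphatase of ERK, was above background on 2 of 3 arrays at each age, and rose by 2.38 (limma adjusted p 0.0149). With normexp its difference was 0.68 and did not pass (limma adjusted p 0.0561). *Phlda1* rose by 1.61 (limma adjusted p 0.0290) and passed under 8 of 16 alternatives, and not in the methods' t-test (adjusted p 0.0780). *Fos* had levels of 10.02, 6.33 and 10.33 at 12 months and of 6.27, 6.33 and 4.31 at 3 months, so that 12-month replicate 2 lay beside the 3-month arrays, and its difference of 3.26 did not pass (limma adjusted p 0.106).

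Of the remaining lists, *Rassf5*, which binds active Ras and Rap, rose by 1.89 (limma adjusted p 0.0458) among 7 other Ras effectors, and did not pass when any 1 of the 6 arrays was left out. *Pik3cd*, in the same list, differed by -0.83 with overlapping ages (limma adjusted p 0.375). Of 3 Sprouty and Spred inhibitors tested none passed in limma. *Spry2* differed by 0.91 (adjusted p 0.0800) and *Spry4* by 0.35 (adjusted p 0.437). Of 8 genes listed for the lipid modification of Ras proteins none passed in limma. *Lypla1*, a depalmitoylating thioesterase, differed by 1.20 (adjusted p 0.0731) and *Zdhhc9*, a palmitoyltransferase subunit, by -0.84 (adjusted p 0.0753).

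**Figure D5:**
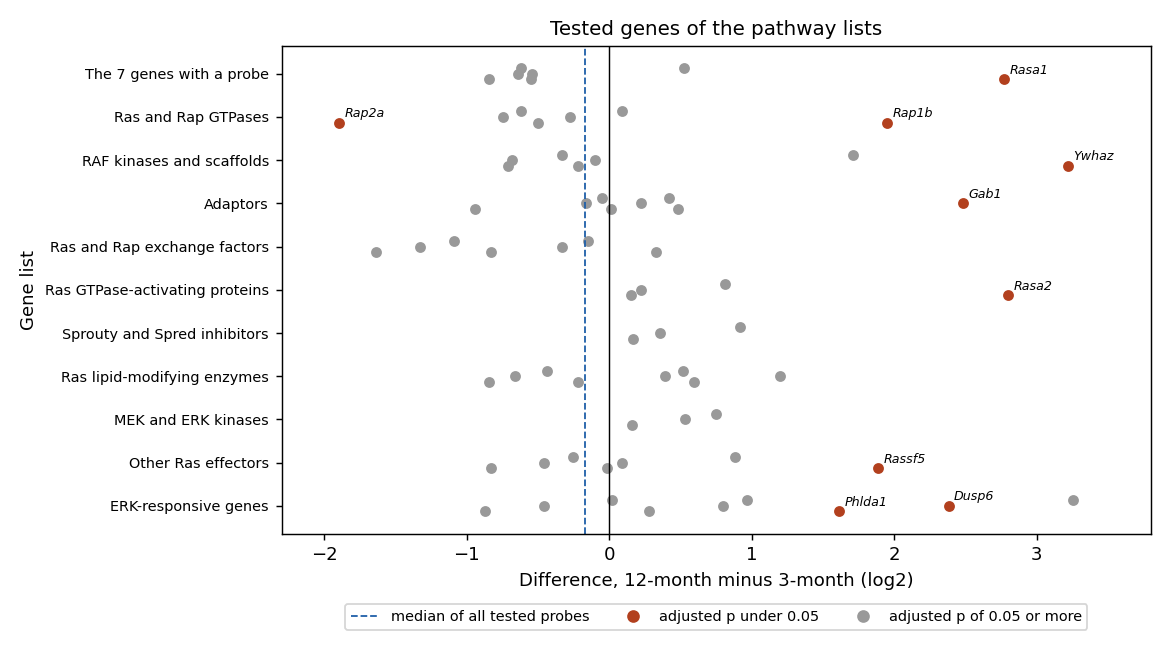
Difference between 12-month and 3-month islets (log2, horizontal axis) of tested genes, by list, with the 7 genes with a probe in the top row. Red points have a limma adjusted p under 0.05 and carry their name, grey points do not, and the dashed line is the median of all tested probes, -0.17. Red points above 0 include *Rasa1* at 2.77 and *Rasa2* at 2.80, and *Rap2a* at -1.90 is the red point below 0.

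The genes whose levels followed each gene most closely were sought among 9135 genes above background on all 6 arrays, by Pearson's r over the 6 arrays. All points share the scan and the normalisation, and the values are descriptions. For *Rasa1* these were *Pnn* (r 0.999) and *Atp6v0d1* (r 0.998), for *Crkl* *Msto1* and *Dock3*, for *Rras* *Ramp1* and *Stx12*, for *Rras2* *Ptprv* and *Spg7*, for *Nras* *Cybc1* and *Hspb9*, for *Araf* *Snapc2* and *Zfp316*, and for *Hras* *Rmnd5b* and *Doc2g*. The r of these pairs lay between 0.978 and 0.999.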

How the data were processed

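RNA of islets from 3- and 12-month-old rats (3 arrays each) had been hybridised to one-colour Arraystar arrays. The deposited scanner files hold spot intensity, background-subtracted in Agilent Feature Extraction 11.0.1.1 and not normalised between arrays per the file headers. The authors also deposited log2 values of 12145 probes, quantile normalised by the study, which were used as an alternative. Arrays have no read depth, and their number limits the precision. Ages come from the labels, in which 12-month replicate 3 has no number.

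Spots of a probe, without those marked as outliers, were averaged as log2 intensity and quantile normalised over 24684 probes. Probes well above background on at least 3 of 6 arrays were kept (17944), and 17941 could be tested. A two-sided limma fit (limma 3.58.1, R 4.3.3, lmFit with eBayes and no block) compared the ages, and p-values were adjusted over the tested probes by Benjamini and Hochberg. Genes were named by RefSeq accession, versions dropped, from a GRCr8 table. The fit was first tested on simulated data.

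All members were named, and from the pathway lists 9 fixed genes, every gene called and at most 2 with the largest difference per list. *Etv5* and *Dusp5* were named besides, as the ERK-responsive genes below 0. A few of these genes are counted but not reported or drawn here. The members and lists were chosen with earlier results of these data known. The alternatives were a 75th percentile shift, normexp (offset 50), the authors' table, other filters, variance models, probes and thresholds, a replicate block, leaving out each array, the 4 arrays with a shared name ending, and the methods' t-test (Student, unpaired). Notes to the study's gene tables name a paired test, which was not run because 12-month replicate 3 has no number to pair it by. The combination of the study's threshold with the unpaired test, and the fit of the 4 numbered arrays without the block, were chosen after seeing the data.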

Additional observations from a re-analysis of the deposited data

How the results depend on the processing

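With the 75th percentile shift, normexp, the authors' table, the other filters, robust variances, the mean over probes and the study's threshold, 1 of the 7 genes was called as in the main settings, and leaving out 1 array gave 1 in each case. It was 0 in limma in each fit of only 4 arrays, namely the numbered arrays 1 and 2 with the replicate block, the same arrays without it, and the arrays that share a name ending (1, 1 and 3 genes at an unadjusted p under 0.05), and it was 2 at an adjusted p under 0.1. Replicate numbers 1 and 2 had correlations of deviations of -0.01 and -0.31. With only these 2 candidate pairs, the values cannot decide whether the numbers pair the arrays. Of the pathway lists, 9 genes were called, 0, 0 and 0 in these 3 fits (15, 14 and 17 at an unadjusted p under 0.05), 1 with the methods' t-test, 17 at an adjusted p under 0.1, 15 at the study's threshold, 14 at it with the methods' t-test, and 1 to 9 when 1 array was left out. Of all tested probes, 1502 were called, 2339 without a filter, 0 with the replicate block, 55 on the same 4 arrays without it and 0 on those that share an ending (2785, 3510 and 3145 at an unadjusted p under 0.05), 437 with the methods' t-test, 3823 at an adjusted p under 0.1, 3952 at the study's threshold, 2727 at it with the methods' t-test, and 208 to 2167 when 1 array was left out. With the 75th percentile shift 794 of 1719 calls were higher, against 955 of 1502 in the main settings.

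Signs turned for 2 within-array pairs, tested by exact permutation, and for 6 probes that passed an adjusted p of 0.05 under no alternative. *Hras* minus *Nras* was -0.31 with the 75th percentile shift and -0.30 to 0.43 when 1 array was left out, and *Rras* minus *Rras2* was -0.27 to 0.13. The dimmer *Hras* probe was -0.43 to 0.17 when 1 array was left out, above 0 without 12-month replicate 1 or 2 and without 3-month replicate 2 or 3. *Grb2* was -0.30 with the 75th percentile shift, -0.012 with normexp, and -0.050 to 0.087 when 1 array was left out, below 0 without 12-month replicate 2, 3-month replicate 1 or 3-month replicate 2. *Sos1* was 3.7e-05 with normexp, 0.023 in the authors' table, 0.91 on the numbered arrays with or without the replicate block, 0.34 on the 4 arrays that share an ending, and -1.01 to 0.69 when 1 array was left out, above 0 without 12-month replicate 3 or 3-month replicate 3. *Mapk3* was -0.25 with the 75th percentile shift, and on the numbered arrays with or without the replicate block *Map2k2* was -0.20 and *Pik3cd* 0.14. The cause of these turns was not tested. *Araf* minus *Braf* was not run, since *Braf* had no matched probe.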
